A study of Mus musculus with 36 samples.

Results

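Aminoacyl-tRNA synthetases are the enzymes that join each amino acid to its transfer RNA, the step that supplies the ribosome with building blocks. The genes were taken from the deposited gene table by symbol, as a letter for the amino acid followed by ars, with or without p before it and with or without 1, 2, a or b after it, and were kept where they are described as tRNA synthetases. The pattern found 36 genes. Eprs, the fused enzyme for glutamate and proline, is named in the rule but its symbol escapes the pattern, and it was added. Of these 37 genes, out of 14702 in the table, 35 carry a description there, and Mars and Wars were matched through RefSeq. By general knowledge 18 encode cytosolic enzymes, 17 mitochondrial enzymes, and 2 (Gars for glycine and Kars for lysine) serve both compartments.

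The study sequenced total RNA from liver and quadriceps muscle of male C57BL6/J mice aged 12 to 14 weeks. Mice had 70% of the liver removed (partial hepatectomy, PHx), after which the remnant grows back, or a sham operation in which the abdomen was opened. Each tissue had 3 sham libraries and 5 libraries from each of days 1, 3 and 7 after PHx, 36 in all, and the labels name no allele. Days come from the sample titles, since the treatment label gives day 3 for every sample, sham included, so the day at which sham tissue was taken is unknown. The series is titled for a role of Yap1 in the liver, a growth co-activator, in body-wide catabolism and wasting of muscle, and the comparisons here ask what the resection changed in the regrowing liver and in a distant muscle.

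Animal cells keep separate sets of synthetases, all encoded in the nucleus: one works in the cytosol and one is imported into mitochondria to serve the organelle's own ribosomes. Several cytosolic enzymes sit together in the multisynthetase complex, held by the scaffold proteins Aimp1, Aimp2 and Eef1e1. Many cytosolic synthetase genes are known targets of the transcription factor ATF4, which rises when uncharged transfer RNA or other stress activates the kinases of the initiation factor eIF2. Human diseases of brain, muscle and peripheral nerve follow from mutations in many members.

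Total counts were 12464547 to 28862458 reads per liver library and 15506197 to 29623890 per quadriceps library. The 37 genes together held 0.108% to 0.202% of liver reads and 0.137% to 0.255% of quadriceps reads. Hepatocyte markers (10 of 10 in the table) summed to 94011 to 163682 CPM (counts scaled to library size) in livers and 9.25 to 530.01 in quadriceps, so the tissue labels held. Some livers carried muscle fibre reads (14 of 14 markers in the table): 675 to 1176 CPM in the 3 sham livers, 1087 and 1897 in day 1 livers 1 and 2, 39.2 to 58.8 in the other day 1 livers, and 11.6 to 242 later. Day 7 liver 3 stood apart, with 3.48 CPM of mitotic genes (8 of 8 in the table) against 139 to 427 in the other day 7 livers, and 279 CPM of macrophage genes against 784 to 1213. In bulk tissue, fewer cells of a type and less RNA per cell cannot be told apart.

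Where genes are compared in level, RPKM (CPM per kilobase of the table's gene length) is used, as mean ± SD of the 3 sham libraries. In sham liver the highest members were Aars for alanine (45.7 ± 2.90 RPKM) and Tars for threonine (45.5 ± 2.64), which did not differ beyond their spread. Eprs (39.9 ± 1.93), Dars for aspartate (32.02 ± 1.99) and Nars for asparagine (29.3 ± 1.49) followed, and Kars (24.9 ± 1.10) came next with a range that overlapped that of Iars2. In sham quadriceps the order was different: Eprs led at 66.4 ± 4.32 RPKM, ahead of Kars (31.9 ± 0.568) and Iars for isoleucine (28.2 ± 1.13), while Aars (16.7 ± 1.53) and Tars (15.1 ± 0.649) lay in the middle. Farsb for phenylalanine, Nars and Dars, next after Iars, overlapped with each other. Levels in the tissues were scaled apart, so this difference in rank was not tested.

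Of the 17 mitochondrial enzymes, 15 in sham liver and 16 in sham quadriceps had a mean level below that of most of the 18 cytosolic ones. Iars2, for isoleucine, was above 13 of the 18 in each tissue, with 24.1 ± 1.32 RPKM in sham liver and 20.1 ± 1.70 in sham quadriceps. Fars2, for phenylalanine (13.5 ± 0.833 and 7.74 ± 0.883), Nars2, for asparagine (9.32 ± 1.23 and 2.97 ± 0.197), and Rars2, for arginine (8.74 ± 0.880 and 9.67 ± 0.561), came next in liver, where Fars2 was above 9 of the 18. Pars2, for proline, was the lowest member of both tissues, at 0.583 ± 0.0833 and 0.599 ± 0.0816 RPKM. The other 12 mitochondrial genes lay between Pars2 and Lars2, for leucine, which was at 7.005 ± 1.46 RPKM in sham liver and 6.39 ± 0.385 in sham quadriceps.

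**Figure D1:**
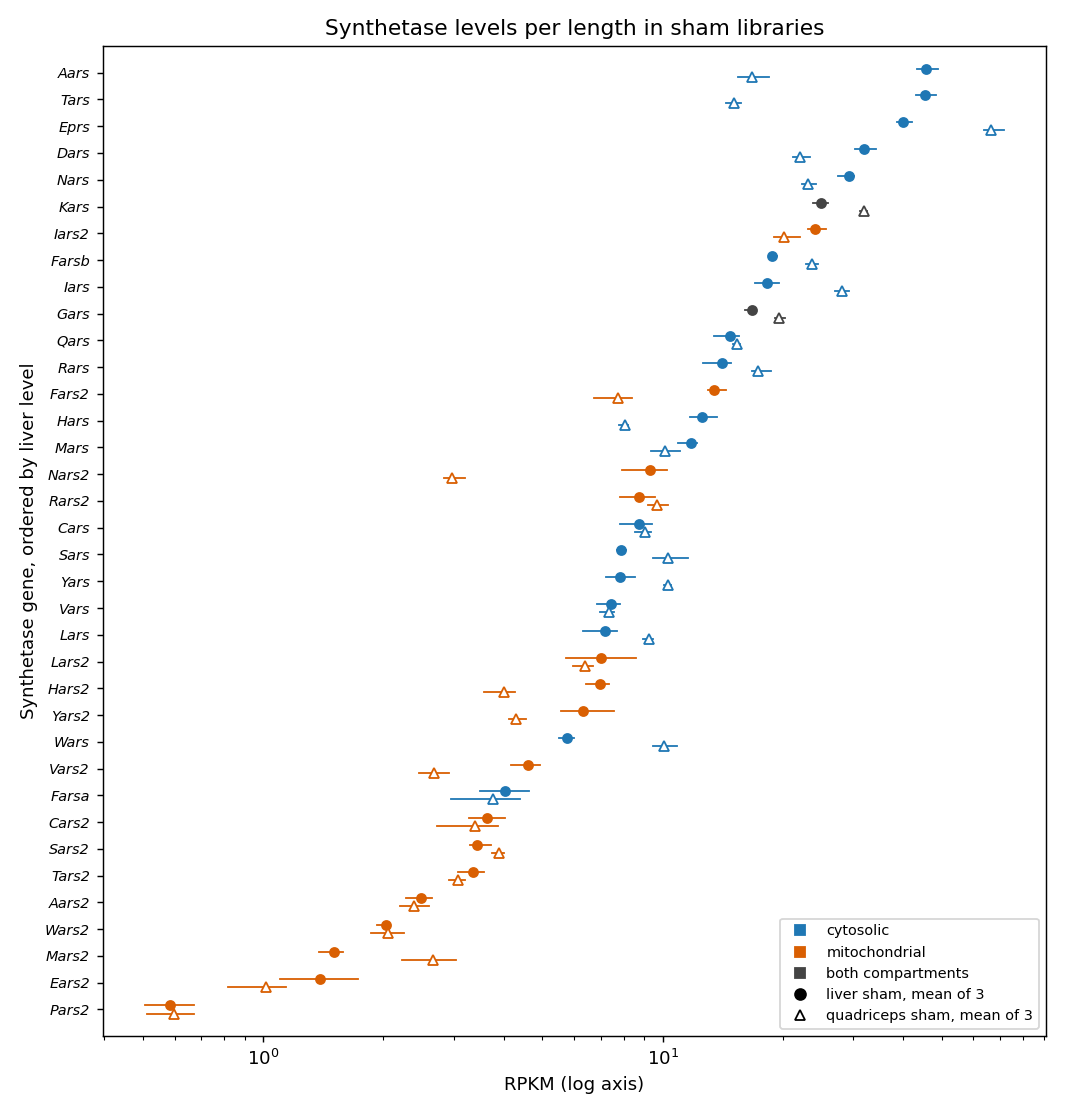
RPKM of 36 of the 37 synthetase genes in sham liver and sham quadriceps, on a log axis and ordered by the liver level; points are means of 3 libraries and lines run from the lowest to the highest. Most of the highest genes are cytosolic, Iars2 is the highest mitochondrial gene, and Pars2 is last.

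In the quadriceps at day 3, 13 of 37 genes rose and 4 fell (edgeR quasi-likelihood test, Benjamini-Hochberg adjusted p under 0.05 over all 13601 genes tested), where 24.8% of all genes rose and 22.6% fell. By compartment, 11 of 18 cytosolic genes rose and 0 fell, while 1 of 17 mitochondrial genes rose and 4 fell. All 18 cytosolic log2 fold changes were above 0, from 0.20 to 1.63 with a median of 0.56, and the mitochondrial median was -0.18. The median of all genes was -0.02. Leaving out sham replicate 2 or 3 lowered the count of genes that rose from 13 to 8, and leaving out sham replicate 1 or 2 lowered the count that fell from 4 to 1. The share of all genes called in these fits was not taken.

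**Figure D2:**
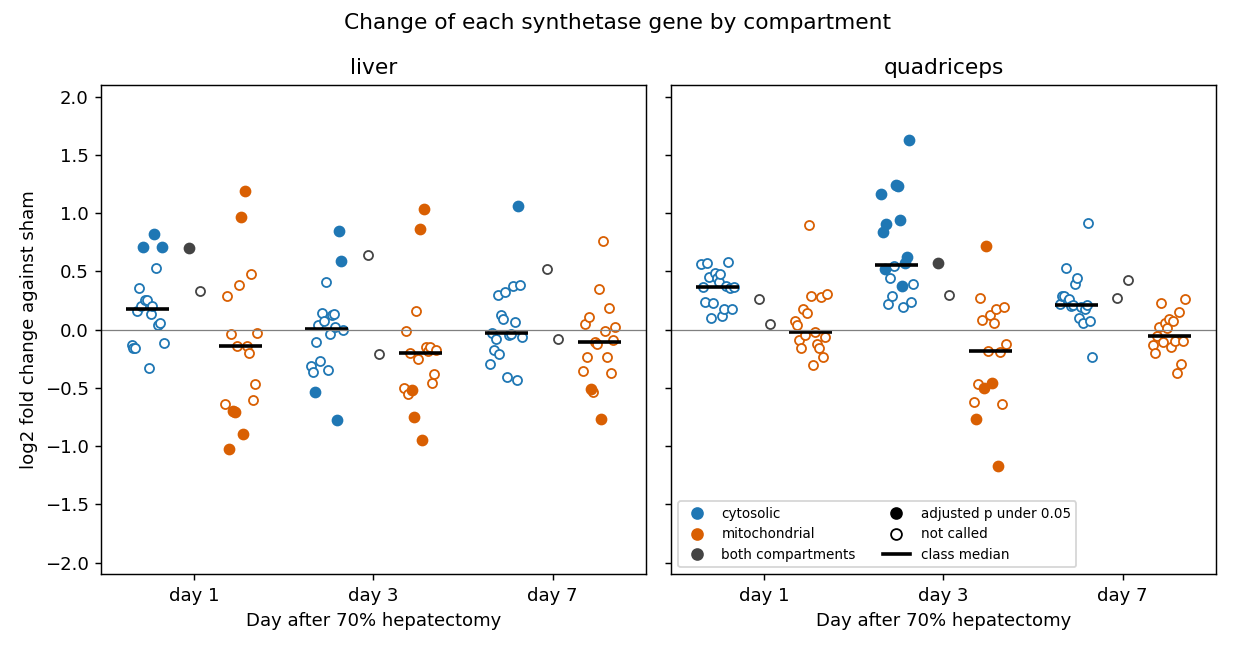
Log2 fold change of every synthetase gene for each day against sham, by tissue and compartment; filled points have an edgeR adjusted p under 0.05 and black bars are class medians. In quadriceps at day 3 the cytosolic median is 0.56 and the mitochondrial median is -0.18.

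Vars, for valine (chr17:35000907-35016329, plus strand, mm10 as for all positions here), rose most in the quadriceps. It stood at 29.4, 31.6 and 31.9 CPM in the sham libraries, 45.03, 36.5, 42.4, 38.7 and 35.1 at day 1, 65.8, 113, 108, 115 and 78.5 at day 3 and 29.7, 69.2, 43.6, 40.8 and 109 at day 7. Every day 3 library lay above every sham library, and day 7 was split, with replicate 1 at the sham level and replicate 5 near the day 3 level. The log2 fold change at day 3 was 1.63 ± 0.33, edgeR adjusted p = 0.0011, where ± gives the standard error here and below. Aars (chr8:111033842-111055569, plus strand) was at 68.5, 60.7 and 57.4 CPM in sham libraries, 112, 80.6, 110.4, 82.5 and 74.2 at day 1, 111, 157, 151, 176 and 102.2 at day 3 and 46.6, 65.8, 107, 48.03 and 94.5 at day 7. Its day 1 and day 3 libraries all lay above the sham libraries, and its day 7 libraries fell on both sides of them. The change at day 3 was 1.16 ± 0.27, edgeR adjusted p = 0.00285.

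Eprs (chr1:185363095-185428355, plus strand), the most abundant member in muscle, stood at 309, 311 and 346 CPM in sham libraries, 529, 313, 488, 478 and 589 at day 1, 613, 624, 627, 659 and 504 at day 3 and 290.5, 527, 519, 331 and 662 at day 7. Day 3 was uniform and wholly above sham, whereas day 1 replicate 2 and day 7 replicates 1 and 4 were near sham. Its day 3 change was 0.91 ± 0.25, edgeR adjusted p = 0.00688. Lars, for leucine, was at 34.1, 35.97 and 35.4 CPM in sham libraries and 56.7, 93.5, 96.6, 107 and 60.8 at day 3, with no overlap, and changed by 1.24 ± 0.30, edgeR adjusted p = 0.0036. Mars, for methionine, was at 32.8, 27.8 and 29.5 CPM in sham libraries and 47.1, 80.1, 80.8, 88.9 and 56.1 at day 3, again with no overlap, and changed by 1.23 ± 0.31, edgeR adjusted p = 0.0047; exons of Ddit3 on the opposite strand cover 2.29% of its length. Both were lowest at day 3 in replicates 1 and 5.

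Nars was at 59.3, 64.2 and 60.6 CPM in sham libraries and 114, 125, 126, 142 and 81.2 at day 3, and changed by 0.94 ± 0.24, edgeR adjusted p = 0.00501. Dars was at 58.7, 54.6 and 53.2 CPM in sham libraries and 64.6, 80.7, 90.3, 83.3 and 80.1 at day 3, and changed by 0.52 ± 0.14, edgeR adjusted p = 0.00586. For both genes all day 3 libraries lay above all sham libraries. The calls of Vars, Aars, Eprs, Lars, Mars, Nars and Dars were kept whichever single library was left out.

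Smaller rises were found for Cars, for cysteine (0.84 ± 0.28, edgeR adjusted p = 0.0216), Tars (0.62 ± 0.21, edgeR adjusted p = 0.025), Sars, for serine (0.57 ± 0.20, edgeR adjusted p = 0.0248), Gars (0.57 ± 0.22, edgeR adjusted p = 0.0367) and Qars, for glutamine (0.38 ± 0.15, edgeR adjusted p = 0.0489). All day 3 libraries lay above all sham libraries for Cars, Tars, Sars and Qars. These 5 calls depended on single libraries. The call of Cars was lost without any 1 sham library (adjusted p up to 0.0713), that of Sars without sham 2 or 3 or day 3 replicate 4 (up to 0.0966), and that of Tars without any 1 sham or day 3 replicate 3 or 4 (up to 0.0815). Those of Gars and Qars were lost without any 1 sham or day 3 replicate 2, 3 or 4 (up to 0.0985 and 0.13). The remaining cytosolic genes did not pass: log2 fold changes were 0.22 ± 0.16 for Farsa and 0.44 ± 0.19 for Farsb, the subunits of the phenylalanine enzyme, 0.29 ± 0.15 for Hars (histidine), 0.54 ± 0.26 for Iars, 0.20 ± 0.15 for Rars (arginine), 0.24 ± 0.14 for Wars (tryptophan) and 0.39 ± 0.28 for Yars (tyrosine). Kars, which serves both compartments, had a value of 0.29 ± 0.17 and did not pass either.

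Among the mitochondrial enzymes, Iars2 (chr1:185286662-185329401, minus strand) was the one that rose. It was at 67.3, 68.3 and 78.2 CPM in sham quadriceps, 84.9, 78.8, 81.1, 80.7 and 68.7 at day 1, 114, 132, 125, 122 and 93.1 at day 3 and 54.2, 76.8, 85.04, 68.3 and 85.7 at day 7. Day 3 stood above all other libraries of this muscle, and day 7 lay on both sides of sham. The change at day 3 was 0.72 ± 0.16, edgeR adjusted p = 0.00195. Exons of Rab3gap2 on the opposite strand cover 2.77% of its length.

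Sars2, for serine (chr7:28741968-28753879, plus strand), fell most. It was at 7.63, 7.13 and 7.60 CPM in sham quadriceps, 5.30, 8.33, 5.28, 8.01 and 6.58 at day 1, 2.73, 3.10, 3.64, 1.95 and 5.09 at day 3 and 7.16, 5.75, 5.26, 6.20 and 4.41 at day 7. All day 3 libraries were below all sham libraries, with replicate 5 the least reduced, and the change was -1.17 ± 0.25, edgeR adjusted p = 0.00167. Cars2, for cysteine, was at 7.15, 6.68 and 5.04 CPM in sham libraries and 2.91, 3.33, 4.60, 2.87 and 4.78 at day 3, with no overlap, and changed by -0.76 ± 0.24, edgeR adjusted p = 0.0169; 20.6% of its length is covered by exons of Naxd on the opposite strand. Hars2, for histidine, changed by -0.50 ± 0.17, edgeR adjusted p = 0.0217, and Nars2 by -0.46 ± 0.18, edgeR adjusted p = 0.0429. The calls of Iars2 and Sars2 were kept without any single library. Those of Cars2 and Hars2 were lost without sham replicate 1 or 2 (adjusted p up to 0.0751 and 0.0833), and that of Nars2 without any single library but day 3 replicate 5 (up to 0.142). The other 12 mitochondrial genes did not pass, with changes from -0.64 ± 0.30 for Vars2 (valine) and -0.62 ± 0.27 for Aars2 (alanine) up to 0.27 ± 0.22 for Ears2 (glutamate).

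Sums of cell type markers differed in the same group, which does not tell fewer cells from less RNA per cell. Muscle fibre markers summed to 270610.0 to 360867 CPM in sham quadriceps and 151845 to 246828 at day 3. Of these markers 14 of 14 were in the table, and 6 fell and 0 rose, where 22.6% of all genes fell and 24.8% rose. Macrophage markers summed to 56.4 to 88.1 CPM in sham and 107 to 248 at day 3 (12 of 12 in the table, with 2 of them at 0 in every sham library). Adipocyte markers (7 of 7) summed to 636 to 3042 CPM in sham and 151 to 509 at day 3. The part of these shifts in the synthetase changes was not tested.

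**Figure D3:**
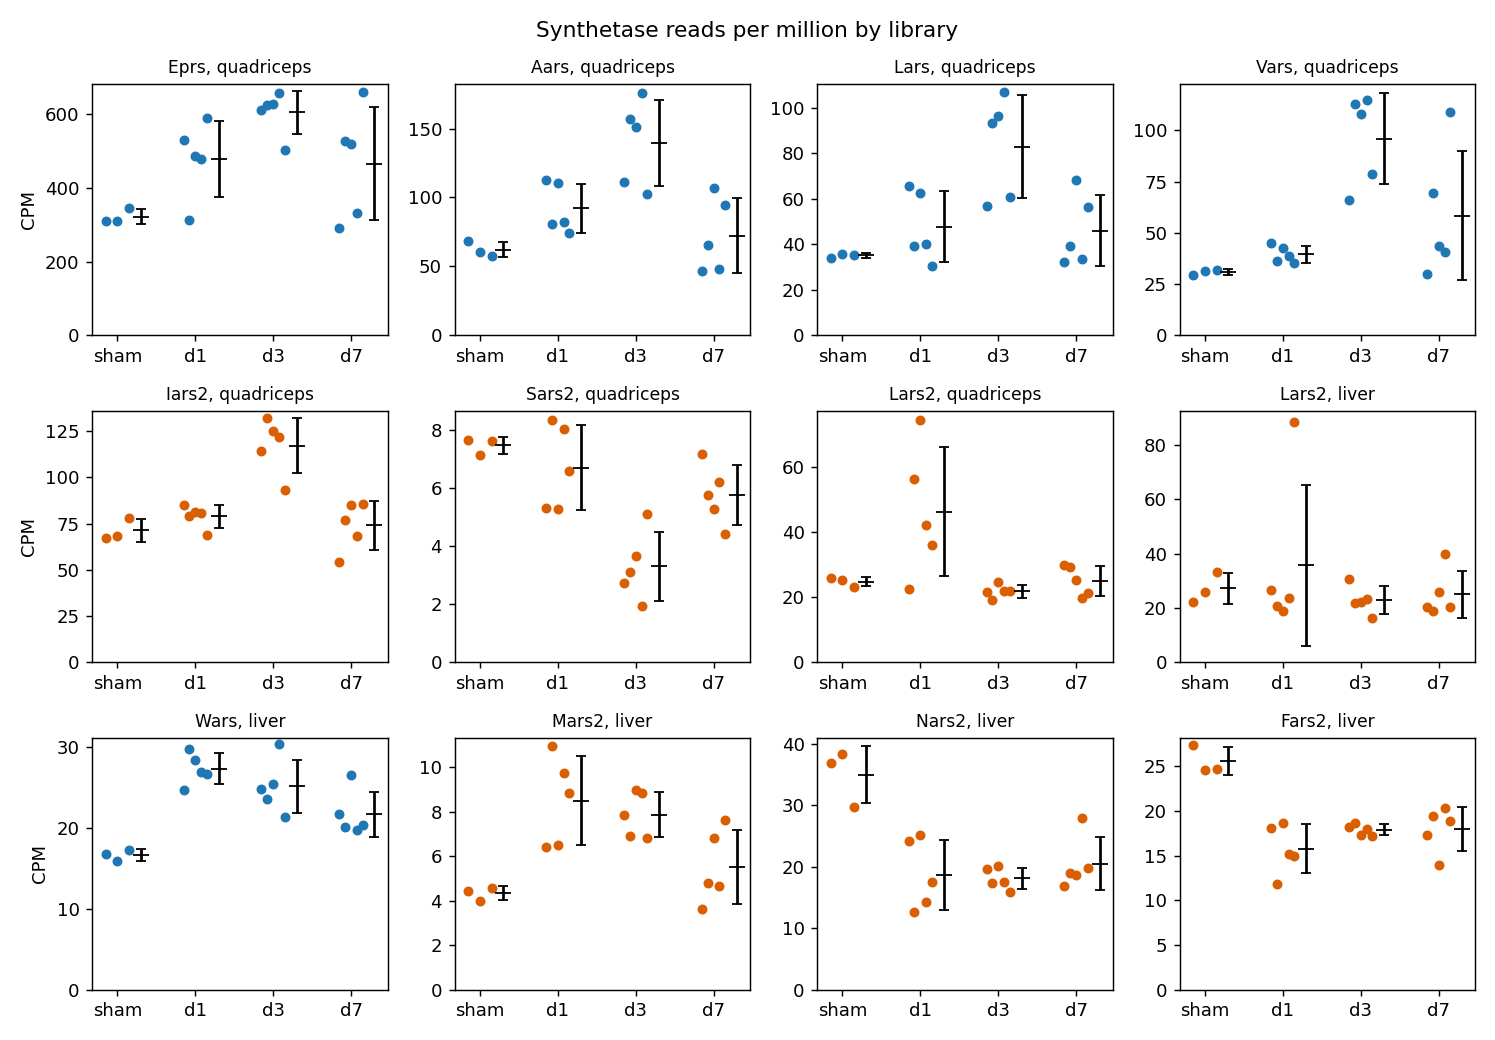
CPM of single synthetase genes in every library, by group; points are libraries and black bars are the mean with its SD. The first row shows quadriceps Eprs, Aars, Lars and Vars, the second quadriceps Iars2, Sars2 and Lars2 with liver Lars2, and the third liver Wars, Mars2, Nars2 and Fars2; the 12 panels were chosen after the values were seen.

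Setting the enzymes for the same amino acid side by side gave 15 pairs of a cytosolic and a mitochondrial gene. The RPKM ratio of Vars to Vars2 was 2.56 to 2.85 in sham quadriceps and 6.04 to 23.9 at day 3; exons of Gm20483 on the opposite strand cover 6.69% of Vars2. That of Sars to Sars2 was 2.52 to 2.90 in sham and 5.55 to 17.2 at day 3. Iars against Iars2 was 1 of 3 pairs whose median ratio was not higher at day 3, at 1.22 to 1.54 in sham and 0.746 to 1.64 at day 3, and here the mitochondrial enzyme was the one that rose. The median ratio of the PHx libraries lay above that of the sham libraries in 13, 12 and 11 of 15 pairs at days 1, 3 and 7, and the median over pairs of the fold between them was 1.25, 1.95 and 1.14. Every PHx library was above every sham library in 4, 9 and 1 of the 15. In liver the median ratio was higher in 12, 12 and 10 of 15 pairs, with median folds of 1.59, 1.18 and 1.16. All PHx livers were above all sham livers in 9, 6 and 3. Pairs of other genes were not counted, so these counts cannot show anything particular to the synthetases.

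Summed over genes, the 18 cytosolic enzymes came to 303 to 310.2 RPKM in sham quadriceps and 419 to 597 at day 3, and the 17 mitochondrial enzymes to 78.7 to 80.1 and 74.9 to 92.5. The ratio of the sums was 3.87, 3.81 and 3.89 in sham libraries, 5.62, 3.86, 4.47, 4.23 and 5.02 at day 1, 5.60, 6.20, 6.18, 7.10 and 5.05 at day 3 and 3.59, 4.56, 5.02, 3.85 and 6.56 at day 7. All day 3 ratios exceeded all sham ratios, while day 1 replicate 2 and day 7 replicates 1 and 4 were close to sham. Eprs alone is a large part of the cytosolic sum in muscle, so the ratio weighs it heavily.

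**Figure D4:**
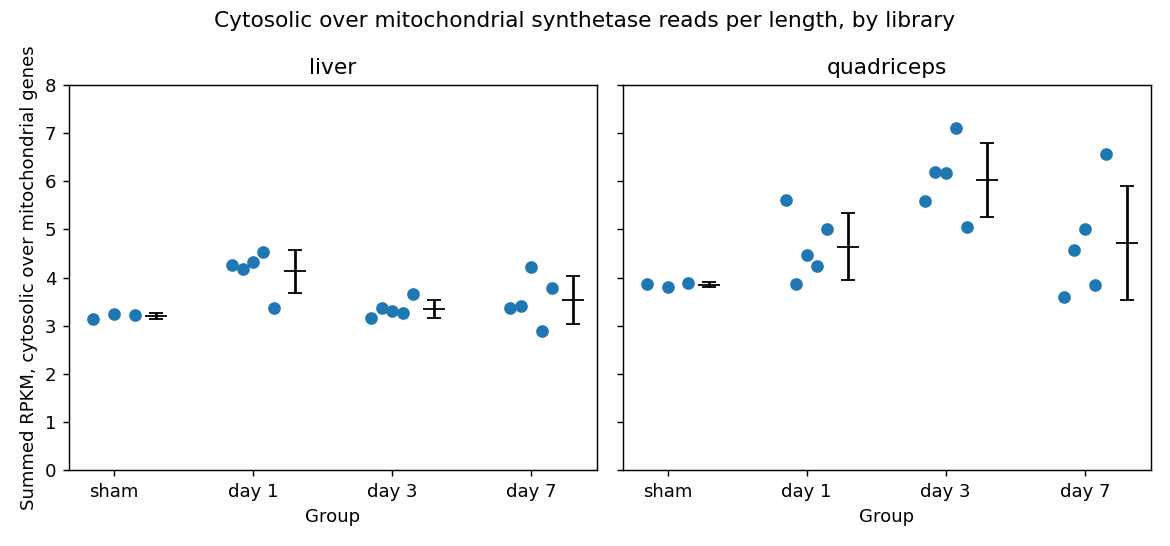
Summed RPKM of 18 cytosolic genes over that of 17 mitochondrial genes in each library, by tissue and group, with the mean and SD as a bar. Quadriceps day 3 libraries lie between 5.05 and 7.10 against 3.81 to 3.89 in sham, and 4 of 5 day 1 livers lie between 4.18 and 4.52 against 3.13 to 3.25.

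At day 1 the quadriceps had no call: 0 of 37 genes rose and 0 fell in edgeR, where 3.04% of all genes rose and 2.26% fell. At an unadjusted p under 0.05 there were 5 genes, all higher, where 27.2% of all genes passed, and DESeq2 called 2, where it called 13.4% of all genes. All 18 cytosolic log2 fold changes were nonetheless above 0, from 0.10 to 0.58 with a median of 0.37, beside a median of 0.02 for all genes. Leaving out day 1 replicate 1 gave 1 gene that rose. Between day 1 and day 3, 4 genes rose (13.6% of all genes did) and 6 fell (12.6%). Vars (1.28 ± 0.27), Mars (0.83 ± 0.26), Lars (0.80 ± 0.25) and Iars2 (0.57 ± 0.13) were those that rose. Those that fell were all mitochondrial: Lars2 (-1.08 ± 0.23), Sars2 (-1.01 ± 0.23), Cars2 (-0.80 ± 0.22), Aars2 (-0.69 ± 0.24), Tars2 for threonine (-0.47 ± 0.16) and Hars2 (-0.45 ± 0.15). The count that rose was 2 without day 1 replicate 4 or 5 or day 3 replicate 2, 3 or 4, where Lars and Mars were lost together, as they were also without day 1 replicate 2 (adjusted p up to 0.0755 and 0.0739). The count that fell was 3 without day 1 replicate 4 or day 3 replicate 2 or 4. Aars2 was lost without any single library of these groups but day 3 replicates 1, 3 and 5 (up to 0.0777), Hars2 without any but day 1 replicate 5 and day 3 replicates 3 and 5 (up to 0.0924), and Tars2 without day 1 replicate 4 or 5 or day 3 replicate 1, 2 or 4 (up to 0.112).

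At day 7 the quadriceps again had no call (edgeR; 0.0441% of all genes rose and 0.0147% fell; 3 members, all higher, and 11.8% of all genes at an unadjusted p under 0.05; DESeq2 called 0 members and 2.19% of all genes). The 5 libraries were far apart. Replicates 3 and 5, and for some genes replicate 2, kept levels above sham for Eprs, Aars, Lars and Mars, and replicates 1 and 4 were at or below sham. From day 3 to day 7, 7 genes fell (19.5% of all genes did) and 3 rose (17.0%). Those that fell were Aars (-0.95 ± 0.23), Lars (-0.85 ± 0.25), Nars (-0.84 ± 0.20), Mars (-0.79 ± 0.26), Vars (-0.72 ± 0.27), Iars2 (-0.66 ± 0.13) and Yars (-0.63 ± 0.24). Those that rose were Sars2 (0.80 ± 0.23), Cars2 (0.57 ± 0.22) and Hars2 (0.40 ± 0.15). The calls of Aars, Lars, Nars, Iars2 and Sars2 were kept without any single library. Mars was lost without day 3 replicate 2, 3 or 4 or day 7 replicate 1 or 4, and Vars without these or day 7 replicate 3 (adjusted p up to 0.0736 and 0.111). Yars was lost without any but day 3 replicates 1 and 5 and day 7 replicate 3 (up to 0.146), Cars2 without any but day 3 replicates 3 and 5 and day 7 replicate 5 (up to 0.118), and Hars2 without day 3 replicate 1, 2 or 4 or day 7 replicate 1, 3 or 4 (up to 0.0922). The count that fell was 4 without day 3 replicate 2, 3 or 4 or day 7 replicate 1 or 4, and 13 without day 7 replicate 5. The count that rose was 1 without day 3 replicate 1, 2 or 4 or day 7 replicate 1, 3 or 4, and 8 without day 3 replicate 5.

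In liver at day 1, 6 of 37 genes rose, where 16.7% of all genes did, and 4 fell, where 11.0% did, so the members were called about as often as genes in general. The genes that rose were 3 cytosolic ones, Gars, and 2 mitochondrial ones, and those that fell were all mitochondrial. Wars (chr12:108860030-108894174, minus strand) was at 16.8, 15.9 and 17.3 CPM in sham livers, 24.6, 29.8, 28.4, 26.9 and 26.7 at day 1, 24.8, 23.5, 25.4, 30.4 and 21.4 at day 3 and 21.7, 20.1, 26.5, 19.7 and 20.4 at day 7. Every PHx liver lay above every sham liver on all 3 days. The change at day 1 was 0.71 ± 0.13, edgeR adjusted p = 0.00231. Rars was at 31.5, 31.6 and 26.9 CPM in sham livers and 45.8, 72.97, 44.3, 56.1 and 45.7 at day 1, with no overlap, and changed by 0.82 ± 0.20, edgeR adjusted p = 0.00894. It was highest in day 1 liver 2, as was Gars.

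Wars is widely known as a gene induced by interferon gamma. A list of interferon gamma response genes, 11 of 12 of which are in the table, had 0 rise and 5 fall in liver at day 1, with a median log2 change of -1.17 beside 0.06 for all genes, and 0 rose and 0 fell at days 3 and 7. In quadriceps 0 of the 11 rose, and 3, 5 and 0 fell at days 1, 3 and 7. Of all genes, 16.7%, 15.8% and 12.4% rose and 11.0%, 12.8% and 6.74% fell in liver on these days. In quadriceps 3.04%, 24.8% and 0.0441% of all genes rose and 2.26%, 22.6% and 0.0147% fell. Whether interferon gamma has a part in the Wars values was not tested.

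The other cytosolic or shared genes that rose at day 1 were Hars (0.71 ± 0.20, edgeR adjusted p = 0.015) and Gars (0.70 ± 0.24, edgeR adjusted p = 0.0416). The call of Hars was lost without sham 1 or 2 (adjusted p up to 0.062) and that of Gars without any 1 sham or day 1 replicate 2 or 4 (up to 0.114). Gars was also lost without day 1 livers 1 and 2, those rich in muscle fibre reads. Without these livers 6 genes rose and 5 fell at day 1. The sham livers in that fit held 675 to 1176 CPM of muscle fibre markers, and the day 1 livers kept held 39.2 to 58.8. It therefore left the groups unlike in these reads and cannot show what the muscle reads contribute. Exons of Hars2, on the opposite strand, cover 9.80% of the length of Hars, and the strand setting of the counting is not given in the sources used here. The RPKM ratio of Hars to Hars2 was 1.72 to 1.87 in sham livers and 2.53 to 8.003 at day 1.

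Both mitochondrial genes that rose at day 1 are expressed at low levels. Mars2, for methionine, was at 4.46, 3.98 and 4.57 CPM in sham livers, 6.42, 10.96, 6.51, 9.73 and 8.86 at day 1 and 7.85, 6.90, 8.98, 8.85 and 6.81 at day 3, with no overlap on either day. The changes were 0.97 ± 0.25, edgeR adjusted p = 0.0103, at day 1 and 0.86 ± 0.25, edgeR adjusted p = 0.0152, at day 3. Pars2 was at 1.57, 2.08 and 1.76 CPM in sham livers, 3.39, 6.92, 2.78, 4.72 and 2.68 at day 1, 4.38, 2.68, 4.14, 3.81 and 3.47 at day 3 and 2.77, 3.29, 2.27, 3.44 and 3.45 at day 7, above sham in every PHx liver. It changed by 1.19 ± 0.30, edgeR adjusted p = 0.0103, at day 1 and 1.04 ± 0.30, edgeR adjusted p = 0.0169, at day 3. The day 1 call of Pars2 was lost without sham 1 (adjusted p 0.0537), and its day 3 call without sham 1 or 3 (up to 0.0783). That of Mars2 at day 3 was lost without any 1 sham (up to 0.0713).

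Nars2 (chr7:96951527-97064757, plus strand) fell on all 3 days. It was at 36.8, 38.4 and 29.7 CPM in sham livers, 24.1, 12.6, 25.2, 14.2 and 17.5 at day 1, 19.7, 17.4, 20.1, 17.5 and 15.9 at day 3 and 16.9, 19.1, 18.7, 28.01 and 19.9 at day 7. Every PHx liver was below every sham liver. The changes were -0.90 ± 0.21, edgeR adjusted p = 0.00697, at day 1, -0.95 ± 0.21, edgeR adjusted p = 0.00378, at day 3 and -0.77 ± 0.21, edgeR adjusted p = 0.0193, at day 7. Exons of C230038L03Rik on the opposite strand cover 7.56% of its length. The calls at days 1 and 3 were kept without any single library, and the call at day 7 was lost without sham 1 or 2 (adjusted p up to 0.0788).

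Fars2 also fell on all 3 days. It was at 27.4, 24.6 and 24.7 CPM in sham livers, 18.1, 11.8, 18.7, 15.2 and 14.9 at day 1, 18.2, 18.6, 17.3, 18.02 and 17.2 at day 3 and 17.3, 19.4, 13.96, 20.3 and 18.8 at day 7, with no overlap with sham on any day. The changes were -0.70 ± 0.15, edgeR adjusted p = 0.00408, at day 1, -0.52 ± 0.15, edgeR adjusted p = 0.0153, at day 3 and -0.51 ± 0.15, edgeR adjusted p = 0.0245, at day 7. The call was lost at day 3 without sham 1 (adjusted p 0.0762) and at day 7 without any 1 sham (up to 0.109). Hars2 was at 22.3, 20.2 and 22.99 CPM in sham livers, 19.99, 12.7, 15.2, 9.90 and 8.86 at day 1 and 12.1, 10.6, 15.4, 12.01 and 14.5 at day 3, and changed by -0.71 ± 0.22, edgeR adjusted p = 0.0241, and -0.75 ± 0.22, edgeR adjusted p = 0.0152. All PHx livers lay below sham on both days. Hars2 was lost at day 1 without any 1 sham or day 1 replicate 4 (up to 0.0904) and at day 3 without sham 1 or 3 (up to 0.0549). Without sham 1, 3 genes rose at day 1. The share of all genes called in that fit was not taken.

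At day 3 in liver, 4 of 37 genes rose (15.8% of all genes did) and 5 fell (12.8%). Beside Wars (0.59 ± 0.13, edgeR adjusted p = 0.00404), Mars2, Pars2, Nars2, Fars2 and Hars2, these were Vars, Tars and Dars. Vars was at 31.97, 28.9 and 33.1 CPM in sham livers, 44.5, 24.5, 35.9, 27.8 and 29.98 at day 1, 46.3, 34.7, 65.99, 68.7 and 66.3 at day 3 and 57.6, 91.5, 49.99, 38.8 and 88.2 at day 7. At days 3 and 7 every liver was above sham, by a wide margin in some and a narrow one in day 3 replicate 2 and day 7 replicate 4. The changes were 0.85 ± 0.29, edgeR adjusted p = 0.0349, and 1.06 ± 0.29, edgeR adjusted p = 0.019. Tars was at 114, 127 and 118 CPM in sham livers, 159, 101.1, 157, 118 and 79.9 at day 1 and 79.1, 66.9, 69.4, 63.5 and 71.03 at day 3, where all lay below sham, and changed by -0.78 ± 0.23, edgeR adjusted p = 0.0175. Dars was at 85.7, 79.3 and 75.9 CPM in sham livers and 53.2, 49.6, 66.2, 50.8 and 56.7 at day 3, also without overlap, and changed by -0.54 ± 0.18, edgeR adjusted p = 0.0295. Vars was lost at day 3 without any 1 sham or day 3 replicate 3, 4 or 5 (adjusted p up to 0.119), Dars without any 1 sham or day 3 replicate 2 or 4 (up to 0.111) and Tars without sham 2 (up to 0.0601). Without sham 1, 2 or 3 the counts of genes that rose were 1, 2 and 1, and of genes that fell 2, 3 and 3. When sham and day 3 alone were fitted, 19 of 37 genes were called in liver, where 52.9% of all genes were.

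Sums of cell type markers also differed between the liver groups. Mitotic genes summed to 15.3 to 19.3 CPM in sham livers, 4.44 to 43.2 at day 1, 118 to 344 at day 3 and 3.48 to 427 at day 7. Macrophage genes (12 of 12 in the table) summed to 290.4 to 374 CPM in sham livers, 209 to 307 at day 1, 499 to 756 at day 3 and 279 to 1213 at day 7. The part of these shifts in the liver values was not tested.

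By day 7, 1 gene had risen (12.4% of all genes did) and 2 had fallen (6.74%) in liver, namely Vars, Nars2 and Fars2. The call of Vars was lost without any 1 sham (adjusted p up to 0.0743). Without sham 1, 2 or 3 the count that rose was 0 and the count that fell 0, 0 and 1, and without day 7 replicate 4 the count that rose was 3. Day 7 liver 3, the liver with few mitotic reads, had the highest Tars (70.1 to 140.4 CPM over the group) and Rars (29.9 to 58.2) of its group, and a cytosolic sum of 402 RPKM against 262 to 340 in the other 4. Without it, 1 gene was called higher and 3 lower at day 7.

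From day 1 to day 3 in liver, 6 genes fell (13.6% of all genes did) and 1 rose (11.6%). Those that fell were Tars (-0.82 ± 0.20), Rars (-0.68 ± 0.17), Tars2 (-0.63 ± 0.18), Hars (-0.56 ± 0.17), Kars (-0.54 ± 0.11) and Farsb (-0.47 ± 0.15), and Vars rose (0.79 ± 0.24). Tars, Rars and Kars were kept without any single library. Tars2 was lost without day 1 replicate 4 or 5, Hars without day 1 replicate 4 or day 3 replicate 3, and Farsb without day 1 replicate 3 or 5 or day 3 replicate 2, 3 or 5 (adjusted p up to 0.0617, 0.0634 and 0.0801). Vars was lost, leaving 0 that rose, without day 1 replicate 2, 4 or 5 or day 3 replicate 3, 4 or 5 (up to 0.0788). Without day 1 replicate 1 or 3, and without day 1 livers 1 and 2 together, which held muscle reads, 2 genes rose. From day 3 to day 7, 0 of 37 genes were called in edgeR (0.612% of all genes rose and 0.648% fell; 2 members and 14.6% of all genes had an unadjusted p under 0.05; DESeq2 called 0 members and 4.18% of all genes).

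The summed ratio of cytosolic to mitochondrial RPKM in liver was 3.13, 3.25 and 3.22 in sham libraries, 4.25, 4.18, 4.32, 4.52 and 3.37 at day 1, 3.15, 3.37, 3.31, 3.27 and 3.65 at day 3 and 3.37, 3.41, 4.22, 2.89 and 3.78 at day 7. All day 1 livers exceeded all sham livers, replicate 5 by little, while days 3 and 7 overlapped with sham. The day 1 sums were 301 to 435 RPKM for the cytosolic and 75.6 to 102.2 for the mitochondrial enzymes, beside 327 to 334 and 100.8 to 106 in sham. The median log2 change of the cytosolic genes less that of the mitochondrial genes at days 1, 3 and 7 was 0.32, 0.21 and 0.07 in liver, beside 0.39, 0.74 and 0.26 in the muscle. Each tissue's comparisons share their sham libraries, so the days are not independent of each other. Leaving out single libraries moved the liver day 7 value between -0.00 and 0.13.

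The difference between tissues was tested as an interaction, the liver response less the quadriceps response, over 12780 genes. At day 3, 11 of 37 genes responded lower in liver than in quadriceps (21.6% of all genes did) and 3 higher (19.9%). The 11 included 8 of 18 cytosolic genes, whose median difference was -0.75, beside -0.08 for the 17 mitochondrial genes and 0.03 for all genes. Differences were -1.58 ± 0.38, edgeR adjusted p = 0.00147 for Mars, -1.48 ± 0.38, edgeR adjusted p = 0.00287 for Aars and -1.41 ± 0.32, edgeR adjusted p = 0.000956 for Tars. They were -1.21 ± 0.36, edgeR adjusted p = 0.00801 for Cars, -1.07 ± 0.22, edgeR adjusted p = 0.000442 for Dars, -1.02 ± 0.33, edgeR adjusted p = 0.0135 for Eprs and -0.99 ± 0.31, edgeR adjusted p = 0.0118 for Nars. Tars and Dars had called changes of opposite sign, down in liver and up in quadriceps. Sars2 differed the other way (0.98 ± 0.33, edgeR adjusted p = 0.0187). These 8 calls were kept without any single library.

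The other 6 differences at day 3 were Farsb (-0.72 ± 0.26), Fars2 (-0.60 ± 0.21), Iars2 (-0.56 ± 0.22), Kars (-0.52 ± 0.21), Pars2 (0.97 ± 0.39) and Mars2 (0.73 ± 0.29), and each depended on single libraries. Farsb was lost without liver sham 1, quadriceps sham 1 or 3 or quadriceps day 3 replicate 3, and Fars2 without liver sham 1 or quadriceps sham 3 (adjusted p up to 0.0564 and 0.0698). Kars was lost without any single library but replicate 1 of day 3 in either tissue (up to 0.0874), and Iars2 without any but liver day 3 replicates 1 and 2, quadriceps sham 3 and quadriceps day 3 replicates 1 and 5 (up to 0.0854). Mars2 was lost without any but liver day 3 replicates 1, 2 and 5, quadriceps sham 3 and quadriceps day 3 replicates 4 and 5 (up to 0.125). Pars2 was lost without any but liver sham 2, liver day 3 replicates 2 and 5, quadriceps sham 1 and quadriceps day 3 replicate 5 (up to 0.105). Without liver sham 1 the count lower was 7. The count higher was 1 without liver sham 1 or 3, liver day 3 replicate 3 or 4, quadriceps sham 2 or quadriceps day 3 replicate 1 or 2.

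At day 1, 1 gene responded lower in liver (4.62% of all genes did) and 1 higher (6.56%). Fars2 differed by -0.87 ± 0.21, edgeR adjusted p = 0.00748, a call kept without any single library, and Pars2 by 1.21 ± 0.39, edgeR adjusted p = 0.0402. The call of Pars2 was lost without 9 of the 16 libraries: liver sham 1 or 3, liver day 1 replicate 2 or 4, quadriceps sham 2 or 3, or quadriceps day 1 replicate 2, 3 or 5 (adjusted p up to 0.104). The counts were 3 lower and 2 higher without liver day 1 replicate 1, and 2 lower without its replicate 5. At day 7, Fars2 was the 1 gene that responded lower (2.64% of all genes did), by -0.75 ± 0.21, edgeR adjusted p = 0.0255, and 0 responded higher (4.44%). That call was lost without liver sham 1 or 3 or quadriceps sham 3 (up to 0.0881). The log2 fold changes of Fars2 in quadriceps were 0.18 ± 0.15, 0.08 ± 0.15 and 0.23 ± 0.15 at days 1, 3 and 7, none of them called.

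The 8 enzymes of the multisynthetase complex (Dars, Eprs, Iars, Kars, Lars, Mars, Qars and Rars) were counted beside the 12 other cytosolic or shared genes. In quadriceps at day 3, 5 of 8 rose with a median log2 change of 0.53, beside 7 of 12 with a median of 0.57 outside the complex. In liver at day 1 the numbers were 1 of 8 and 3 of 12, with medians of 0.23 and 0.17. The scaffold genes went their own ways. Aimp2 was at 117, 112 and 94.2 CPM in sham quadriceps, 53.6, 84.4, 54.9, 101.2 and 89.3 at day 1, 13.1, 17.01, 22.7, 17.6 and 33.2 at day 3 and 156, 37.01, 53.9, 167 and 37.9 at day 7. Day 3 lay wholly below sham, and day 7 was split, with replicates 1 and 4 above sham and the other 3 below. The day 3 change was -2.38 ± 0.45, edgeR adjusted p = 0.000794, and the liver response at day 3 exceeded it by 2.33 ± 0.55, edgeR adjusted p = 0.0013. Exons of Eif2ak1 on the opposite strand cover 41.1% of Aimp2, and Eif2ak1 rose by 0.60 ± 0.13. In quadriceps at day 3 the log2 value was 0.08 ± 0.11 for Aimp1 and -0.40 ± 0.25 for Eef1e1, neither called, and in liver at day 1 Eef1e1 rose (1.13 ± 0.28, edgeR adjusted p = 0.0092).

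Related factors of charging and elongation were read from lists. Their counts are to be read beside the shares of all genes given above for each tissue and day. Of 5 paralog and editing factors, 0 rose, and at days 1, 3 and 7 the number that fell was 1, 1 and 0 in liver, beside 0, 2 and 0 in muscle. Tarsl2, a paralog of the threonine enzyme, fell in liver at day 1 (-1.12 ± 0.22, edgeR adjusted p = 0.00259) and day 3 (-0.92 ± 0.22, edgeR adjusted p = 0.0049) and in quadriceps at day 3 (-0.74 ± 0.16, edgeR adjusted p = 0.00177). Of the 4 genes that make glutaminyl and formylmethionyl transfer RNA in mitochondria, Qrsl1 (-1.35 ± 0.27) and Gatc (-0.85 ± 0.26) fell in quadriceps at day 3, while in liver at day 3 Gatb fell (-0.82 ± 0.23) and Qrsl1 rose (0.83 ± 0.26). Of 5 selenocysteine genes, Sephs2, the selenophosphate synthetase, and Sepsecs, which converts the charged serine to selenocysteine, fell in liver on all 3 days (-1.53 ± 0.34, -1.21 ± 0.34 and -1.10 ± 0.34 for Sephs2; -1.06 ± 0.22, -1.33 ± 0.22 and -0.73 ± 0.22 for Sepsecs). In quadriceps at day 3, 2 of the 5 rose and 1 fell. The elongation factors Eef2 (0.60 ± 0.21) and Eef1d (0.46 ± 0.10), 2 of 6 cytosolic ones, and Gfm1 (0.80 ± 0.21), 1 of 4 mitochondrial ones, rose in quadriceps at day 3, where 0 of these 10 fell.

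A list of 27 genes of the amino acid response, targets or partners of ATF4 other than the synthetases, was read beside them. In quadriceps 6, 11 and 0 rose and 2, 5 and 0 fell at days 1, 3 and 7, with median log2 changes of 0.68, 0.72 and 0.36. In liver 13, 12 and 7 rose and 0, 0 and 1 fell, with medians of 1.33, 0.59 and 0.61. Of all genes, 3.04%, 24.8% and 0.0441% rose and 2.26%, 22.6% and 0.0147% fell in quadriceps, with medians of 0.02, -0.02 and 0.02. In liver 16.7%, 15.8% and 12.4% of all genes rose and 11.0%, 12.8% and 6.74% fell, with medians of 0.06, 0.04 and 0.05. Atf4 itself, named after its values were seen, changed by 2.03 ± 0.43, edgeR adjusted p = 0.00144, in quadriceps at day 3 and 0.78 ± 0.27, edgeR adjusted p = 0.0416, in liver at day 1, and its value in liver at day 3 was 0.00 ± 0.27, which was not called. The liver response at day 3 was lower than that of quadriceps by an interaction of -2.03 ± 0.49, edgeR adjusted p = 0.00162. In quadriceps at day 1, where 0 of 37 members were called, Atf4 was at 315, 178, 317, 175 and 250 CPM. Its sham quadriceps values were 107, 110 and 120 CPM. Whether ATF4 has a part in the synthetase changes was not tested.

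Within the list, the tissues had different genes in front. By smallest p, liver day 1 was led by Aldh18a1 (1.56 ± 0.29), which makes the precursor of proline, Slc7a1 (3.49 ± 0.72), a transporter of cationic amino acids, Psat1 (4.06 ± 0.93) of serine synthesis and Asns (2.30 ± 0.57), the asparagine synthetase. Quadriceps day 3 was led by Psph (-2.84 ± 0.40), which fell and makes serine, Eif4ebp1 (3.56 ± 0.59), an inhibitor of cap-dependent translation, Mthfd2 (1.58 ± 0.32) of mitochondrial folate metabolism and Slc3a2 (0.94 ± 0.19), the shared chain of amino acid transporters. Of the eIF2 kinases, Eif2ak1 rose in quadriceps at day 3 and fell in liver on all 3 days (-0.46 ± 0.13, -0.60 ± 0.13 and -0.73 ± 0.13). Eif2ak4, the sensor of uncharged transfer RNA, rose in liver at day 1 (1.46 ± 0.41, edgeR adjusted p = 0.0164). It was at 16.5, 17.5 and 16.5 CPM in sham livers and 16.5, 30.7, 21.9, 72.4 and 91.4 at day 1. In quadriceps it was at 16.3, 17.3 and 18.2 CPM in sham libraries and 18.8, 36.8, 57.0, 42.2 and 34.8 at day 1. At day 3 its quadriceps values were 88.7, 57.4, 24.1, 29.3 and 17.7 CPM, and at day 7 they were 13.5, 17.8, 82.4, 15.4 and 16.3. No test of these quadriceps values is given here. Eif2ak3 also rose in liver at day 1 (0.54 ± 0.16). Eif2ak2 fell in liver at day 1 (-0.73 ± 0.19) and in quadriceps at days 1 and 3 (-0.94 ± 0.22 and -1.20 ± 0.22).

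ATF4 with C/EBP proteins binds a known response element, and its letters were looked for in the promoters of the members. RefSeq promoters of build GRCm38.p6, from 250 bases before to 50 after the gene start, matched 27 of the 37 genes (11 cytosolic, 2 shared and 14 mitochondrial). The letters TGATGNAAN, searched on both strands, were found in 5 of the 27, Aars (in 2 places), Gars, Iars, Tars and Yars, and in 0 of the 14 mitochondrial ones, beside 3.95% of all 32851 promoters. In quadriceps at day 3 Aars, Tars and Gars rose, and Iars and Yars did not pass. With or without a promoter entry, 11 of 18 cytosolic and 1 of 2 shared genes rose there. Whether the element has a part in these changes was not tested. These 5 promoters are shown because they are all those that hold the element, which is in capitals. They lie at chr8:111033592-111033891 (plus strand, Aars), chr6:55037751-55038050 (plus, Gars), chr13:49681880-49682179 (plus, Iars), chr15:11399609-11399908 (minus, Tars) and chr4:129189653-129189952 (plus, Yars), and are written 5′ to 3′ along the gene.
Aars: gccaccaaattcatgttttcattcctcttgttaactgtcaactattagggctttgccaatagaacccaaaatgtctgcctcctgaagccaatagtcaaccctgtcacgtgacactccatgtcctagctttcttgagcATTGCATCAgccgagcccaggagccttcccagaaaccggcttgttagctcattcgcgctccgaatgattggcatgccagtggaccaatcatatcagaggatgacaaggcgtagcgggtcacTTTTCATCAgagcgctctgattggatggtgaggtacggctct
Gars: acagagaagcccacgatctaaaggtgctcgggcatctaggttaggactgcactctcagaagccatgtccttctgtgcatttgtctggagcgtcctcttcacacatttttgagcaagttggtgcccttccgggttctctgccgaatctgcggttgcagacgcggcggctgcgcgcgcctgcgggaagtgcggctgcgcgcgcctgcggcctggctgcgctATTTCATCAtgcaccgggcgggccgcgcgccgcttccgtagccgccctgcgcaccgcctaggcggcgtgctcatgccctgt
Iars: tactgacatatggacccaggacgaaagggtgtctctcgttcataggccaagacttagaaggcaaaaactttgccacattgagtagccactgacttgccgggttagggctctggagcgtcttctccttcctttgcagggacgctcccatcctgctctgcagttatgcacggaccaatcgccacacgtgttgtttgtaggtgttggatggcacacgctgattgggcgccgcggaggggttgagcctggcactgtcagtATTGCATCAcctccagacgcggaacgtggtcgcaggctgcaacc
Tars: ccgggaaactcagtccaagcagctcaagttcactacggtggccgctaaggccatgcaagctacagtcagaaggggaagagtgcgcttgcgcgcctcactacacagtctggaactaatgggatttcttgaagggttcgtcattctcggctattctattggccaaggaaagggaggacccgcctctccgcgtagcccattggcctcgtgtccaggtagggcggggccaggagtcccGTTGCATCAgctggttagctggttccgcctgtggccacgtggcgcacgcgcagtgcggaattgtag
Yars: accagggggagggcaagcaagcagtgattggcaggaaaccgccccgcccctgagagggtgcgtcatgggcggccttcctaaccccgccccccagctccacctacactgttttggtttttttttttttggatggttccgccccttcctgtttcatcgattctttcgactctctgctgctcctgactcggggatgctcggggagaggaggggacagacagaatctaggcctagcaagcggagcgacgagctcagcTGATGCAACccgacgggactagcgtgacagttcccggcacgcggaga

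The match in Iars, the one in Yars and the second in Aars lie just after the gene start, that in Tars 16 to 8 bases before it, and that in Gars 31 to 23 before it. A palindromic E-box, CACGTG, was present in 5 of the 27 promoters (Aars, Ears2, Farsb, Iars and Tars; 7.15% of all promoters). The element of NRF1, a regulator of genes for mitochondrial proteins, searched on both strands as GCGCA and GCGC with any base between, was in 5 (Farsb, Iars2, Kars, Mars2 and Tars; 4.60% of all promoters). It was in 2 of the 14 mitochondrial promoters. Of these 5 genes, Iars2 and Tars rose in quadriceps at day 3, and Farsb, Kars and Mars2 were not called. Whether the E-box or the NRF1 element has a part in any change was not tested. The Iars2 promoter, chr1:185329352-185329651 on the minus strand, is shown as that of the mitochondrial gene that rose in quadriceps, with the NRF1 match in capitals.
Iars2: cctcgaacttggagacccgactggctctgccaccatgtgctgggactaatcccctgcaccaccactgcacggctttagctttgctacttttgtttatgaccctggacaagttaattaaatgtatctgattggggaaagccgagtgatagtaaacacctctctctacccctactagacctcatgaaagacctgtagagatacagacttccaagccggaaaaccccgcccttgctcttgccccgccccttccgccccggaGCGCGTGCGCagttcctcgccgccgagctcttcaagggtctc

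Lars2 varied widely between the replicates of some groups. In quadriceps it was at 25.9, 25.4 and 23.1 CPM in sham libraries, 22.4, 56.1, 74.3, 42.2 and 35.9 at day 1, 21.4, 19.1, 24.7, 21.9 and 22.03 at day 3 and 29.95, 29.1, 25.3, 19.6 and 21.2 at day 7. Day 1 replicates 2 to 5 were above sham and replicate 1 below, and the comparison of day 1 with sham did not pass (0.90 ± 0.27, edgeR adjusted p = 0.0583), while that from day 1 to day 3 did (-1.08 ± 0.23, edgeR adjusted p = 0.00326). In liver it was at 22.2, 25.96 and 33.4 CPM in sham libraries and 26.8, 20.8, 18.8, 23.7 and 88.3 at day 1, where replicate 5 alone was high. Rn45s, the precursor of ribosomal RNA and named after its values were seen, was at 3606, 7084, 7819, 5477 and 6987 CPM in quadriceps and 7472, 4804, 7695, 7227 and 10189.8 in liver at day 1. It was likewise lowest in quadriceps replicate 1, highest in quadriceps replicate 3 and highest in liver replicate 5. At day 3 in quadriceps, Rn45s was at 7416 CPM in replicate 2, where Lars2 was at 19.1. In liver at day 1, Lars2 was lowest in replicate 3, while Rn45s was lowest in replicate 2. Rn45s was at 4486, 4540 and 4634.5 CPM in sham livers and at 7164 to 8656 at day 3. Lars2 was at 16.2 to 30.7 CPM in those day 3 livers. Whether residual ribosomal RNA reads have a part in the Lars2 values was not tested.

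In the authors' deposited table, members with a deposited FDR under 0.05 numbered 6 higher and 4 lower at day 1, 3 and 5 at day 3 and 1 and 3 at day 7 in liver. For quadriceps the authors' deposited table gave 0 and 0, 13 and 4, and 0 and 0. These values come from the same libraries and are not independent of the counts above. The share of all genes at that FDR was not taken.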

How the data were processed

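The deposited values are raw read counts per gene in 36 libraries, with the authors' log2 fold changes, their FDR (an adjusted p-value) and gene lengths. Per the submitters' processing notes, the tools were FastQC 0.11.5, STAR 2.7.10a, featureCounts, Subread 2.0.3 and edgeR 3.40.2 on build mm10. The authors' model and strand setting are not given in the sources used here. Another 36 per-sample columns stayed unused. Groups follow the sample titles, and the labels speak of 3 sham and 5 PHx animals.

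Counts of 18 libraries per tissue were fitted with edgeR 4.0.16 (R 4.3.3; filterByExpr, which kept 13879 liver and 13601 quadriceps genes and all 37 members, TMM, robust glmQLFit, two-sided glmQLFTest), with Benjamini-Hochberg adjustment over all genes at 0.05. The tissue interaction used 36 libraries and 12780 genes. CPM and RPKM are TMM-scaled within tissue. All 37 members enter the counts, medians and sums; 1 mitochondrial member is not reported here by itself. Scripts were tested on simulated data, in which fewer genes were changed than were called in the real data at day 3. A true 2-fold change at day 3 was found for 30.3% of such genes in liver and 16.4% in quadriceps. For the tissue difference it was 7.63%. False calls were 4 of 75, 2 of 58 and 8 of 90. A gene that was not called may thus still have changed. Alternatives were size factors as in DESeq2, DESeq2 1.42.0, no filter, the compared groups alone, a replicate block, TMM over all libraries and leaving out each library; leaving out day 1 livers 1 and 2 was added after seeing the data. The members, lists and comparisons were chosen with earlier results of these data known, and lists were written from general knowledge. Genes outside the members are named as the up to 4 list genes with the smallest p or for their role, some after their values were seen.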

Additional observations from a re-analysis of the deposited data

Results flagged for a closer look

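In 11 of 222 checks of a gene in a group of 5 libraries (4.95%), 1 library lay far from the other 4, and chance gives such a library in about 1 of 20 groups. In liver at day 1, Eprs was at 104.7 CPM in replicate 2 against 234.8 to 252 in the others, and Lars2 at 88.3 in replicate 5 against 18.8 to 26.8. At day 3 in liver, Kars was at 60.2 CPM in replicate 1 against 44.4 to 47.5. At day 7 in liver, replicate 3 had high Rars (58.2 CPM against 29.9 to 37.8) and Tars (140.4 against 70.1 to 85.2), and replicate 4 had high Cars2 (7.69 against 6.64 to 6.90) and Nars2 (28.0 against 16.9 to 19.9). In quadriceps, the high libraries were day 1 replicate 4 for Tars2 (21.2 CPM against 14.6 to 16.5), day 3 replicate 5 for Nars2 (10.97 against 6.91 to 7.995) and Pars2 (3.16 against 1.51 to 1.82), and day 7 replicate 5 for Farsb (98.5 against 60.4 to 70.4).

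The test of the difference between tissues passed in 17 cases, each given as the log2 response of liver less that of quadriceps. At day 1 these were Fars2 (-0.87) and Pars2 (1.21), and at day 7 Fars2 (-0.75). At day 3, lower in liver were Mars (-1.58), Aars (-1.48), Tars (-1.41), Cars (-1.21), Dars (-1.07), Eprs (-1.02), Nars (-0.99), Farsb (-0.72), Fars2 (-0.60), Iars2 (-0.56) and Kars (-0.52), and higher were Sars2 (0.98), Pars2 (0.97) and Mars2 (0.73).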

How the results depend on the processing

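None of the 83 calls reversed its direction under the alternatives run. Among members without a call, size factors as in DESeq2 turned the sign of 1 each in liver at day 3, at day 7 and from day 3 to day 7, and TMM over all libraries that of 1 and 2 for the tissue difference at days 3 and 7. Of the calls, 39 were kept whichever single library was left out and 44 were lost without at least 1. The share of all genes called was not taken in any fit that left libraries out. Losses of members there cannot be told from a general loss of calls. Leaving out libraries one at a time gave, for genes higher and lower in liver, 3 to 7 and 3 to 6 at day 1, 1 to 4 and 2 to 5 at day 3, 0 to 3 and 0 to 3 at day 7, and 0 to 2 and 4 to 9 from day 1 to day 3. In quadriceps the ranges were 0 to 1 and 0 to 0 at day 1, 8 to 16 and 1 to 6 at day 3, 2 to 6 and 3 to 8 from day 1 to day 3, and 1 to 8 and 4 to 13 from day 3 to day 7. For the tissue difference they were 0 to 2 and 1 to 3 at day 1, 1 to 4 and 7 to 12 at day 3 and 0 to 0 and 0 to 1 at day 7. The cytosolic less the mitochondrial median at days 1, 3 and 7 ranged from 0.30 to 0.40, 0.14 to 0.27 and -0.00 to 0.13 in liver, and from 0.31 to 0.45, 0.67 to 0.80 and 0.12 to 0.38 in muscle.

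Fitting the compared groups alone gave 1 gene lower in liver at day 1 and 13 at day 3, and in quadriceps 3 higher at day 1, 2 lower at day 3, 3 lower from day 1 to day 3, and 1 higher and 4 lower from day 3 to day 7. Under that fit 19 members were called in liver at day 3 and 14 in quadriceps at day 3, beside 52.9% and 48.8% of all genes, so which tissue had more calls at day 3 depends on it. In liver at day 1 that fit called 16.2% of members and 9.85% of all genes. In quadriceps it called 8.11% and 17.2% at day 1 and 21.6% and 24.9% from day 1 to day 3. From day 3 to day 7 it called 13.5% and 26.5% there. DESeq2 gave 2 higher in liver at day 7 and 2 higher in quadriceps at day 1. For the tissue difference at day 1 it gave 2 higher. Of members and of all genes DESeq2 called 13.5% and 26.5%, 5.41% and 13.4%, and 8.11% and 14.7% in these comparisons. With a replicate block, 0 genes were lower in liver at day 7, 0 higher from day 1 to day 3 in liver, 1 higher from day 3 to day 7 in quadriceps, and for the tissue difference 0 higher at day 1, 1 higher at day 3 and 0 lower at day 7. The block called 13.8% of all genes in liver at day 7 and 18.9% there from day 1 to day 3. In quadriceps from day 3 to day 7 it called 32.2%. For the tissue difference it called 8.61%, 39.2% and 5.47% of all genes at days 1, 3 and 7. Same-numbered libraries did not deviate together within a tissue (median correlation 0.02 in liver and -0.02 in quadriceps, lowest -0.35 and -0.36). Across tissues, libraries of the same state and number had a median correlation of 0.10 (lowest -0.08, highest 0.33) against -0.02 for other numbers. The labels do not say whether same-numbered liver and quadriceps came from 1 animal, and the numbers were not taken as pairs. The block left 9 of 14 members called for the tissue difference at day 3, without Kars, Farsb, Iars2, Mars2 and Pars2. It called 24.3% of all members there, beside 39.2% of all genes. The block was set within each tissue, so it paired no liver with a quadriceps. With the block 208 rather than 720 of all genes were called in quadriceps at day 1. TMM over all libraries gave 1 gene higher for the tissue difference at day 3. Without day 1 livers 1 and 2, 2 genes rose from day 1 to day 3. The cause of these shifts was not tested beyond what each setting changes. Depth limits the low genes most: Pars2 lay between 1.40 and 6.92 CPM in all libraries.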
